A study of Mus musculus with 15 samples.

Results

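The interferon-inducible CXC chemokine genes Cxcl9, Cxcl10 and Cxcl11, the gene of their shared receptor Cxcr3, and the genes of the upstream cytokine Ifng and of its receptor chain Ifngr1 were followed in spleen cells of irradiated mice. The genes were taken by symbol, and all 6 were on the nCounter Mouse Immunology Panel, among 547 endogenous and 14 reference genes. This assay captures each mRNA with a colour-coded probe pair and counts the barcodes singly without amplification. Of the 6, Cxcl9, Cxcl10, Cxcr3 and Ifngr1 had a mean of at least 20 counts and were tested with 426 genes in all. Cxcl11 and Ifng lay below that minimum and are described by their counts.

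Female C57BL/6J mice of 6 to 8 weeks were uninjured (Sham), were given whole-body ionizing radiation at 9 Gy (WBIR), or received the same dose within a combined injury (RCI) with a full-thickness contact burn of 20% of the body surface. In the WBIR+MSC-EVs and RCI+MSC-EVs groups, extracellular vesicles of cultured bone marrow mesenchymal stem cells were injected intravenously 72 hours after injury, and spleens were taken 48 hours later. Each group had 3 samples. The labels give PBS as the treatment of RCI, no treatment for WBIR and none for Sham, whereas the study's text describes saline for untreated mice and a burn procedure without burn or irradiation for Sham. Whether mice with WBIR alone shared the anaesthesia, morphine and fluids of the burn procedure is not stated, so these and the burn cannot be told apart where RCI is set against WBIR. Whether the 3 samples of a group are 3 mice is not said, and the methods speak of triplicate runs, so the p-values measure the spread between samples, which may be partly technical.

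CXCL9, CXCL10 and CXCL11 are small secreted chemoattractants that bind CXCR3, a G protein-coupled receptor carried chiefly by activated and memory T cells, NK cells and NKT cells. Interferon gamma, made mainly by NK cells and T cells, signals through a receptor of IFNGR1 and IFNGR2 and the kinases JAK1 and JAK2. CXCL9 is known for a strong dependence on interferon gamma, whereas CXCL10 also answers to type I interferons and to NF-kB. In the spleen, macrophages, dendritic cells and stromal cells are known sources of these ligands.

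Both tested ligand genes lie close together on mouse chromosome 5, with Art3 as the protein-coding gene between them in RefSeq. Their upstream sequences are shown because CXCL9 and CXCL10 are known to answer to different inducers. The RefSeq promoter table (GRCm38.p6) held 5 of the 6 genes, all but Cxcl11. Among the protein-coding genes of RefSeq, too, Cxcl11 was the only 1 of the 6 without an entry. The windows printed are the 250 bases before the start, read 5′ to 3′ on the minus strand, for Cxcl9 at chr5:92328080-92328329 and for Cxcl10 at chr5:92348890-92349139. Capitals mark matches on either strand to the core of the interferon-stimulated response element (ISRE: GAAA, any 2 bases, GAAA), to TTCNNNGAA, the gamma-activated site (GAS), or to the NF-kB consensus.
Cxcl9: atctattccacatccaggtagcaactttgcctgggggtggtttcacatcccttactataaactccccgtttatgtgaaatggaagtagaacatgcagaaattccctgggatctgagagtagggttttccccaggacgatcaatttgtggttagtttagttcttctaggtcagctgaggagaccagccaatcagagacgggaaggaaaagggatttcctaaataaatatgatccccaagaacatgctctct
Cxcl10: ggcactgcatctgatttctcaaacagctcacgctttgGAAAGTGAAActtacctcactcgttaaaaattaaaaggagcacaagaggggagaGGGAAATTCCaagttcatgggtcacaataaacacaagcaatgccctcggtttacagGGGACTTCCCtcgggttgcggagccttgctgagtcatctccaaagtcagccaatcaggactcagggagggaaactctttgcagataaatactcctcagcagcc
The Cxcl10 window held 1 ISRE match, which began 213 bases before the start, and 2 NF-kB matches, at 159 and 103 bases before it. None of the 3 motifs matched in the Cxcl9 window in these exact letters. In the windows of Cxcr3 and Ifngr1 none matched either, and Ifng had 1 GAS match, 249 bases before its start. Of 32851 windows of this length, 2.98% held an ISRE match, 7.02% a GAS match and 3.9% an NF-kB match.

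Counts are given after scaling each sample to the geometric mean of 14 reference genes of the panel, as nSolver does, and log2 fold changes come from edgeR's quasi-likelihood fit, with p adjusted by Benjamini-Hochberg over all 426 tested genes. Of the 14 reference genes, 7 differed by more than 2-fold between WBIR and Sham, and likewise 7 between RCI and Sham. With this scaling the median gene lay below Sham, by a log2 fold change of -0.74 in WBIR and -0.53 in RCI, and of -0.61 and -0.45 in the same injuries with vesicles. Scaling by TMM, which centres on most genes, moved these medians by 0.71, 0.54, 0.56 and 0.37, to near 0, so values under both scalings are given where a call or direction differs. Total counts ran from 90127 to 598872 with a median of 360995. RCI replicate 3 stood apart from its group. Its chi-square per degree of freedom was 210 and 166 against RCI replicates 1 and 2, which differed from each other by 10.4. The Sham replicates differed widely too, by 155 (1 and 2), 74.9 (1 and 3) and 103 (2 and 3), so comparisons with Sham rest on uneven samples. Results that rest on RCI replicate 3 are also given without it. B cell and T cell markers were plentiful in Sham (summed scaled counts of 16748 to 18748 over 9 B cell genes and 10031 to 23505 over 14 T cell genes).

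Radiation changed most of the panel, and the calls among the 4 tested genes are read against that. In WBIR 2 of the 4 tested genes were called where 68.5% of all genes were, in WBIR+MSC-EVs 1 of 4 where 67.8% were, in RCI 3 of 4 where 69.5% were, and in RCI+MSC-EVs 3 of 4 where 65.3% were. Rises were the rarer direction, with 21.6%, 22.8%, 26.5% and 23.9% of genes called higher in these comparisons, and falls made up 46.9%, 45.1%, 43% and 41.3%. Groups lay apart from Sham, in either direction, for 71.1%, 69%, 64.6% and 70.4% of genes, for 27% between RCI and WBIR, for 9.62% with the burn averaged over treatment, and for 8.92% and 10.8% with and without vesicles after WBIR and RCI. For RCI against WBIR 0 of 4 were called where 0.704% of all genes were, for the burn averaged over treatment 0 of 4 where 3.05% were, and for either vesicle comparison 0 of 4 where 0% were. Cxcl9 was higher than 89.9% of genes in its log2 fold change in WBIR and than 90.1% in RCI. Cxcl10 was higher than 79.3% and 85.2%, and Cxcr3 than 48.1% and 27.7%. Under TMM 66.9%, 65.5%, 70.4% and 67.1% of genes were called against Sham, and 6.57% for the burn. The 4 comparisons with Sham share its 3 samples.

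Of the 4 tested genes, Cxcl9 rose in every injured group. Its scaled counts were 19.9, 44.1 and 16.1 in Sham. They were 100.4, 91.1 and 103 in WBIR and 100.1, 94.3 and 86.9 in WBIR+MSC-EVs. The RCI samples held 214, 108 and 44.8, and the RCI+MSC-EVs samples 108, 69 and 95.8. Every injured sample lay above every Sham sample, although RCI replicate 3 at 44.8 passed Sham replicate 2 at 44.1 by very little, whereas the WBIR samples lay within a CV of 6.27%. The log2 fold change against Sham was 1.98 ± 0.50 (SE, n = 3) in WBIR, 3.95-fold, with an edgeR adjusted p of 0.00266. With vesicles added it was 1.91 ± 0.50 (edgeR adjusted p = 0.00370), in RCI 2.29 ± 0.50 (edgeR adjusted p = 0.000936) and in RCI+MSC-EVs 1.87 ± 0.50 (edgeR adjusted p = 0.00415). The rise was called in all 24 alternative settings of each of these 4 comparisons. Without RCI replicate 1, the highest sample, the log2 fold change in RCI was 1.60, and without RCI replicate 3 it was 2.71.

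**Figure D1:**
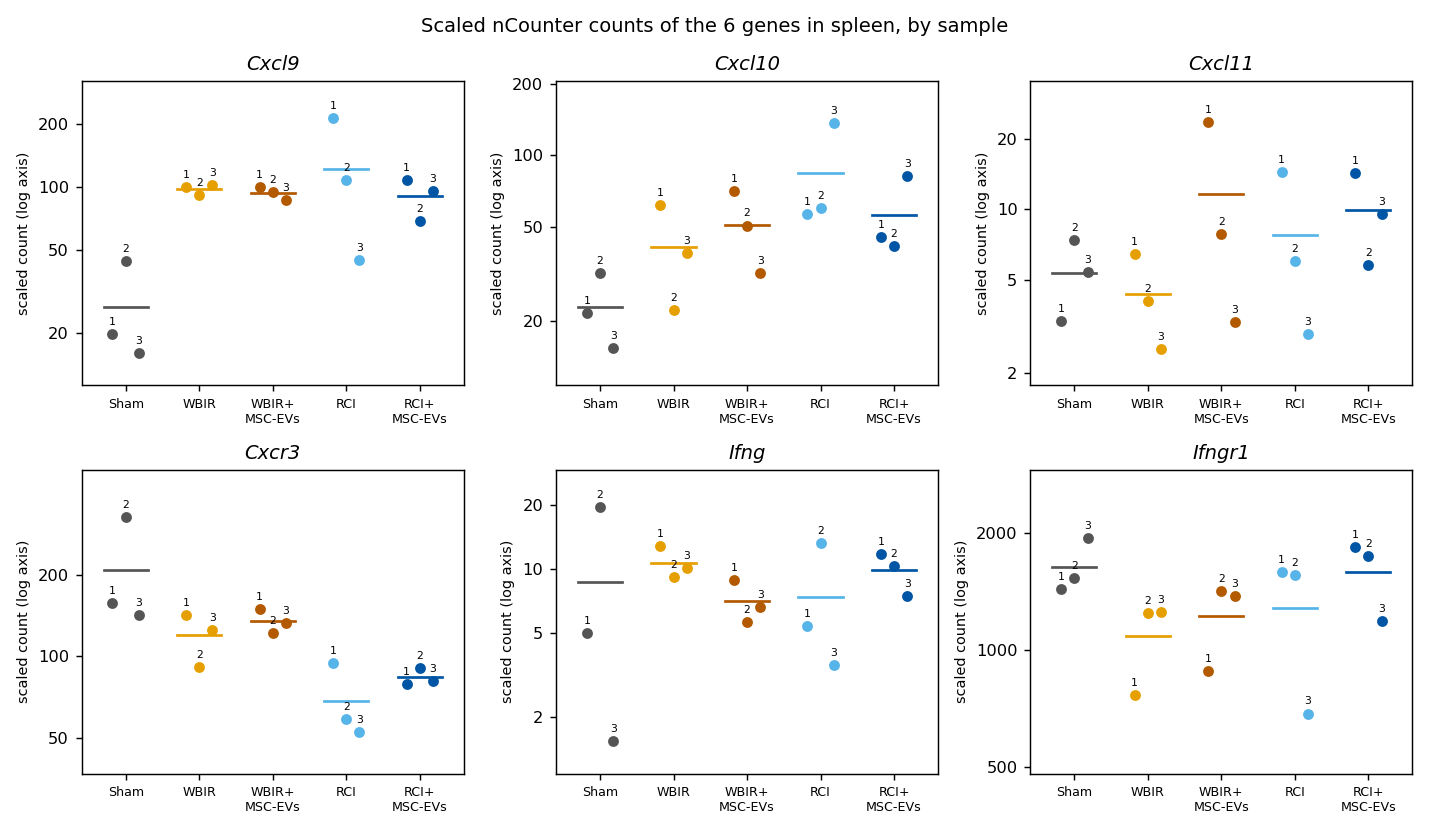
Scaled nCounter counts (log axis) of the 6 genes in the 15 spleen samples, by group; points are samples with their replicate number and lines are group means of 3. Cxcl9 lies above Sham in every injured sample, Cxcr3 lies lowest in both RCI groups, and Cxcl11 and Ifng rest on raw counts of 17 or fewer.

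For Cxcl10, the rise over Sham was called in the RCI groups but not in the WBIR groups. Scaled counts were 21.5, 31.8 and 15.4 in Sham, 61.8, 22.3 and 38.8 in WBIR, and 70.6, 50.5 and 31.9 in WBIR+MSC-EVs. In RCI they were 56.5, 59.9 and 137, and in RCI+MSC-EVs 45.4, 41.4 and 81.9. WBIR overlapped Sham, WBIR+MSC-EVs cleared it by less than 1 scaled count, and both RCI groups lay above it. The log2 fold change was 1.95 ± 0.50 (SE, n = 3; edgeR adjusted p = 0.00315) in RCI and 1.36 ± 0.50 (edgeR adjusted p = 0.0284) in RCI+MSC-EVs. In WBIR it was 0.89 ± 0.51 (edgeR adjusted p = 0.132) and in WBIR+MSC-EVs 1.17 ± 0.51 (edgeR adjusted p = 0.0558). Under TMM all 4 differences passed, at log2 fold changes of 1.51 in WBIR, 1.68 with vesicles added, 2.52 in RCI and 1.70 with vesicles added (edgeR adjusted p of 0.0250, 0.0155, 0.000939 and 0.0132). Single samples carried much of the size: without RCI replicate 3 the value in RCI was 1.41 (edgeR adjusted p = 0.0191), and without RCI+MSC-EVs replicate 3 the call in that group was lost at 0.98 (edgeR adjusted p = 0.128). That call was lost as well without Sham replicate 1, at 1.35 (edgeR adjusted p = 0.0684), and without Sham replicate 3, at 1.12 (edgeR adjusted p = 0.105).

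How the pair of ligands moved together among injured samples turned on a single sample. RCI replicate 1 had the highest Cxcl9 of the series and a Cxcl10 of 56.5, whereas RCI replicate 3 had the highest Cxcl10 and the lowest Cxcl9 of the 12 irradiated samples. Over all 15 samples Pearson's r of their log2 scaled counts was 0.50, and over the 12 irradiated samples it was -0.28. Without RCI replicate 3 it was 0.75 over 14 samples and 0.28 over the other 11 irradiated ones, so its sign turned. These values are descriptions, since the samples share scaling factors and groups. Cxcl9 minus Cxcl10 within a sample, a log2 difference that no scaling can change, was 0.13 ± 0.28 (SD, n = 3) in Sham and 0.85 ± 0.94 (SD, n = 12) in irradiated samples, and the difference of 0.72 did not pass the exact permutation test (two-sided p = 0.255, adjusted p = 0.425 over 20 such tests). Without RCI replicate 3 the difference was 0.94 and passed (exact permutation test, adjusted p = 0.0366).

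**Figure D2:**
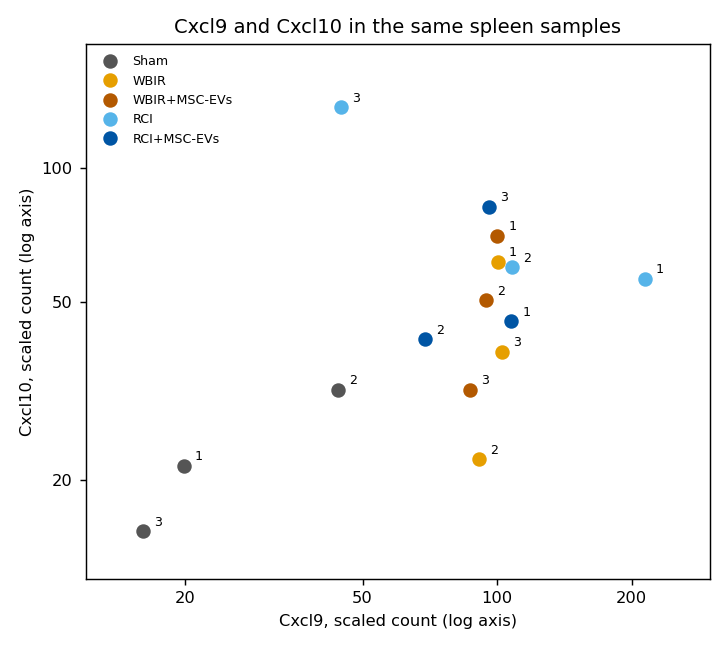
Scaled count of Cxcl9 (log axis) against that of Cxcl10 (log axis) in the same 15 samples, with replicate numbers. The Sham samples lie at the lower left, RCI replicate 1 lies farthest right at a Cxcl9 of 214, and RCI replicate 3 lies highest at a Cxcl10 of 137.

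Cxcl11, the third ligand gene, which had no protein-coding entry in RefSeq, gave raw counts between 3 and 17. Whether these mice made a CXCL11 protein was not tested. They were 4, 3 and 7 in Sham, 5, 4 and 3 in WBIR, 8, 14 and 6 in WBIR+MSC-EVs, 16, 5 and 5 in RCI and 17, 5 and 9 in RCI+MSC-EVs. The groups overlapped in every comparison, and in a fit without the minimum no difference was called (log2 fold changes against Sham from -0.24 to 1.00, smallest edgeR adjusted p 0.252). A change of this gene was not detectable at these counts.

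Cxcr3 fell in both RCI groups. Scaled counts were 158, 328 and 143 in Sham, 143, 91.1 and 126 in WBIR, and 150.1, 122 and 133 in WBIR+MSC-EVs. They were 94.2, 58.7 and 52.4 in RCI and 79, 90.8 and 80.9 in RCI+MSC-EVs. Both RCI groups lay wholly below Sham, the WBIR groups overlapped it, and Sham replicate 2 was the highest sample of the series. The log2 fold change against Sham was -1.60 ± 0.33 (SE, n = 3; edgeR adjusted p = 0.000716) in RCI and -1.31 ± 0.33 (edgeR adjusted p = 0.00311) in RCI+MSC-EVs, and both were called in all 24 alternatives, TMM included at -1.06 and -0.90. Without Sham replicate 2 they were -1.14 and -0.85.

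In WBIR the same receptor gene stood at -0.79 ± 0.33 (SE, n = 3; edgeR adjusted p = 0.0439), a call that held in 6 of 24 alternatives, and was -0.08 under TMM (edgeR adjusted p = 0.777) and -0.33 without Sham replicate 2 (edgeR adjusted p = 0.280). In WBIR+MSC-EVs it was -0.62 ± 0.33 (edgeR adjusted p = 0.102). Both values were close to the median of all genes in those comparisons. In WBIR the call of Cxcr3 therefore depended on the scaling, on the method and on single samples. In WBIR+MSC-EVs no difference from Sham was called under either scaling, whereas in both RCI groups the fall was called under both.

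RCI was also set against WBIR, which asks what the burn adds. Cxcr3 was at -0.81 ± 0.33 (SE, n = 3; edgeR adjusted p = 0.235), a value higher than that of 3.76% of genes. Over treated and untreated mice together (6 samples against 6) the difference was -0.75 ± 0.23 (edgeR adjusted p = 0.0617), which did not pass, and under TMM it was -0.94 (edgeR adjusted p = 0.00717), which did. It passed in 6 of 24 alternatives. Of the 8 NK and cytotoxic genes listed, 6 were called lower with the burn under TMM too (median -1.09), against 0 under reference-gene scaling (median -0.88). WBIR replicate 2 at 91.1 and RCI replicate 1 at 94.2 were the samples that overlapped, and without RCI replicate 3 the difference of RCI from WBIR was -0.64. Cxcl10 differed by 1.06 ± 0.47 between RCI and WBIR (edgeR adjusted p = 0.266), or 0.52 without RCI replicate 3, and Cxcl9 by 0.31 ± 0.45 (edgeR adjusted p = 0.790).

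**Figure D3:**
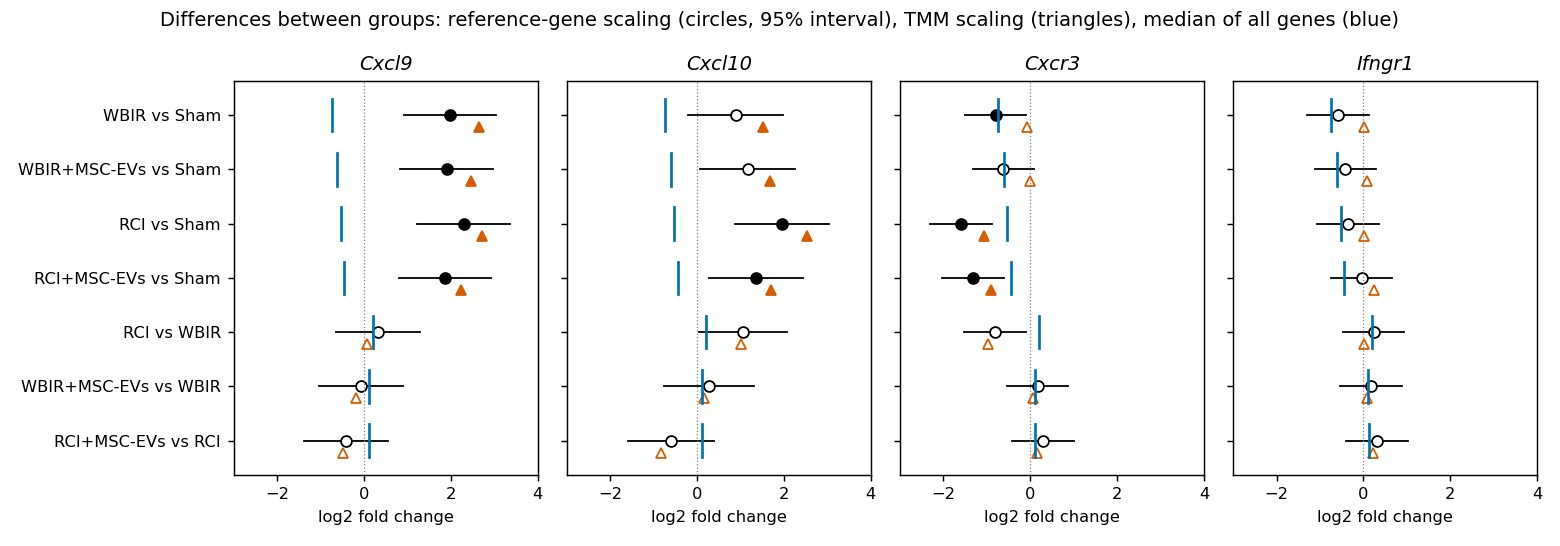
Log2 fold changes of the 4 tested genes in 7 comparisons: circles with 95% intervals under reference-gene scaling, triangles under TMM, filled where the adjusted p is under 0.05, and blue marks for the median of all 426 genes. Cxcl9 is filled against Sham throughout, Cxcr3 is filled under both scalings in the RCI groups, and no symbol is filled for the vesicles.

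The markers of cells that carry CXCR3 moved as well. Of 14 listed T cell genes, 13 fell in WBIR and 13 in RCI, under TMM too (0 rose, with medians of -2.52 and -2.16 on the log2 scale), the exception being Cd3eap, an RNA polymerase I subunit that is no T cell marker. Their summed scaled count ran from 10031 to 23505 in Sham and from 2465 to 5339 in the 12 irradiated samples. Of 8 NK and cytotoxic genes, 1 rose and 1 fell in WBIR, and 1 rose and 2 fell in RCI, with medians of -0.02 and -0.83 (under TMM 3 rose and 1 fell in WBIR, and 1 rose and 2 fell in RCI). Their sums were 1696 to 5652 in Sham, 1541 to 3702 in the WBIR groups and 854 to 1477 in the RCI groups, with the highest sum in Sham replicate 2. In such bulk samples fewer cells of a type and less RNA per cell cannot be told apart, and the part of these markers in the Cxcr3 values was not tested beyond the within-sample differences.

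Within a sample, Cxcr3 stood higher against the T cell genes after irradiation, and less so after RCI. The log2 difference between Cxcr3 and the mean of the 14 listed T cell genes, Cd3eap included, was -1.75, -1.66 and -1.58 in Sham. It was 0.19, -0.33 and -0.09 in WBIR and -0.04, 0.08 and -0.09 in WBIR+MSC-EVs. In RCI it was -0.69, -1.50 and -0.97, and in RCI+MSC-EVs -1.17, -1.17 and -1.0025. All irradiated samples lay above Sham, and all 6 RCI samples lay below all 6 WBIR samples. The 12 irradiated samples exceeded Sham by 1.10 (exact permutation test, two-sided p = 0.00440, adjusted p = 0.0176), and the RCI groups were 1.04 below the WBIR groups (exact permutation test, two-sided p = 0.00216, adjusted p = 0.0176). Both tests treat all samples as independent. Same-numbered samples with and without vesicles deviated together within each injury, so the p-values may be too small. With such pairs as the units, the second test would hold too few of them to pass. Both p-values are the smallest the design allows. With a Sham sample left out the first no longer passed (exact permutation test, adjusted p from 0.0733 to 0.0879), as held for the other differences from Sham given here. With 2 Sham samples the smallest possible p-value is larger, which leaves little room to pass. The first difference itself stayed at 1.06 to 1.14. Without RCI replicate 3 the second difference was -1.06 (adjusted p = 0.0220).

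Against the NK and cytotoxic genes Cxcr3 stood lower after irradiation. The difference was 0.59, 0.07 and 0.30 in Sham and between -0.98 and 0.01 in all irradiated samples, lower by 0.71 (exact permutation test, two-sided p = 0.00440, adjusted p = 0.0176), without overlap. The RCI groups stood at -0.39 ± 0.23 and the WBIR groups at -0.39 ± 0.45 (SD, n = 6 each; exact permutation p = 0.996). The genes most like Cxcr3 across the 15 samples were Ccl5, a chemokine of cytotoxic lymphocytes (Pearson's r = 0.94), Eomes, a transcription factor of NK and memory T cells (r = 0.92), and the kinase gene Fyn (r = 0.91). Over the 12 irradiated samples they were Ccr2 (r = 0.91), Ccl5 (r = 0.88) and Klrc1, which encodes an NK cell receptor (r = 0.87).

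**Figure D4:**
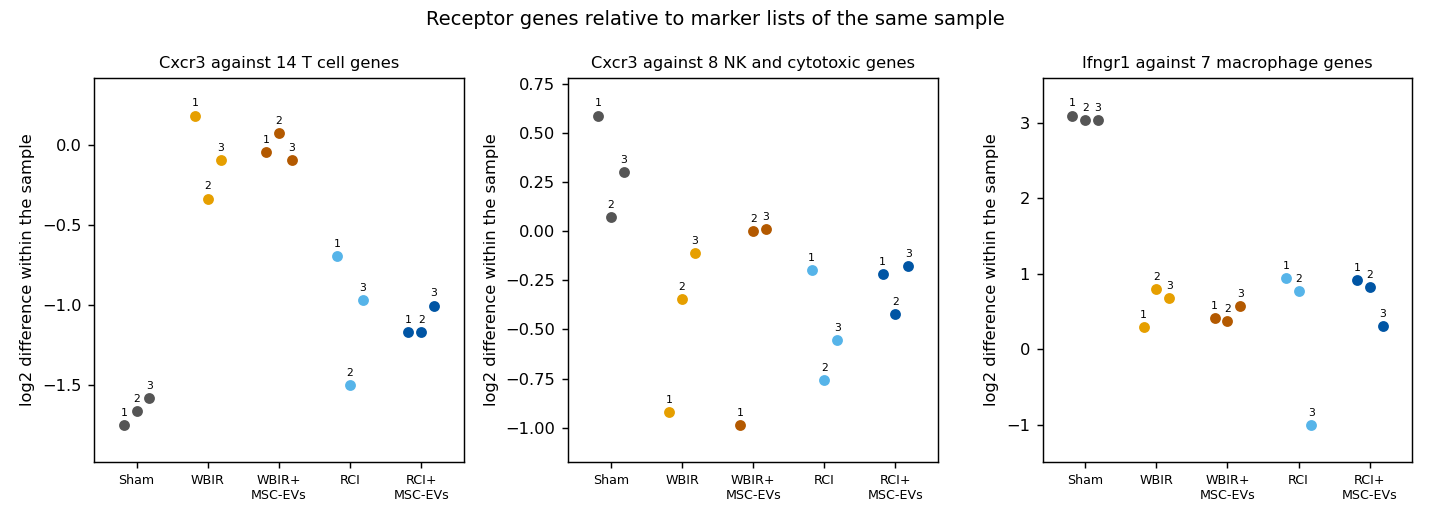
Log2 count of Cxcr3 minus the mean log2 count of 14 T cell genes or of 8 NK and cytotoxic genes, and of Ifngr1 minus that of 7 monocyte and macrophage genes, for each of the 15 samples by group; these differences do not depend on scaling. Both RCI groups lie between Sham and the WBIR groups for the T cell genes, from -1.50 to -0.69, and Sham lies apart near 3.05 for Ifngr1.

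Other chemokine receptors of lymphocytes gave the frame for Cxcr3. Of 8 tested, 6 fell and 1 rose in WBIR, and the same counts held in RCI (under TMM 5 fell and 2 rose in WBIR). Cxcr4, the receptor of Cxcl12, was at -4.57 in WBIR and -4.36 in RCI, the follicle-homing receptor Cxcr5 at -4.15 and -4.12, and Ccr6 at -4.02 and -3.26. Cx3cr1, carried by monocytes and cytotoxic lymphocytes, rose by 1.36 in WBIR and 1.24 in RCI. The median of these 8 was -2.93 in WBIR and -2.92 in RCI, against -0.79 and -1.60 for Cxcr3. Among the other CXC chemokines, 2 of 3 tested rose in WBIR and 3 of 3 in RCI. Cxcl12, a stromal chemokine, rose by 1.95 in WBIR and 3.00 in RCI, and the platelet chemokine Ppbp by 2.20 and 2.31. Cxcl13, which attracts B cells, rose by 2.46 in RCI with 386 in RCI replicate 3 against 106 and 85.1 in its group mates, a call that was lost without that sample (1.45, edgeR adjusted p = 0.0541), and was at 0.59 in WBIR (edgeR adjusted p = 0.466).

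Ifng was close to the bottom of the range of the assay. Its raw counts were 6, 8 and 2 in Sham, 10, 9 and 12 in WBIR, 3, 10 and 12 in WBIR+MSC-EVs, 6, 11 and 6 in RCI and 14, 9 and 7 in RCI+MSC-EVs. No comparison with Sham was called in the fit without the minimum (log2 fold changes from -0.02 to 0.67, smallest edgeR adjusted p 0.437), and the groups overlapped in each. WBIR+MSC-EVs lay below WBIR without overlap in scaled counts, at -0.68 on the log2 scale (edgeR adjusted p = 0.997). At 2 to 14 counts a change of Ifng was not detectable.

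Among the genes known to induce Ifng or to act in the cells that make it, 3 of 11 tested rose and 4 fell in WBIR, and 3 rose and 5 fell in RCI (4 and 4, and 3 and 5, under TMM). Il18, a macrophage cytokine that drives Ifng in NK and T cells, had 167, 265 and 287 scaled counts in Sham, 2305 to 2668 in WBIR and 2378 to 2881 in RCI. It rose by 3.39 ± 0.24 (SE, n = 3) on the log2 scale in WBIR and 3.44 ± 0.24 in RCI. Il15, a survival cytokine of NK and memory T cells, rose by 1.83 and 2.36, although RCI replicate 3 at 24.5 lay as low as Sham replicate 2. The receptor chain genes of Il18 fell instead, Il18r1 to -2.42 in WBIR and -2.53 in RCI, and Il18rap to -2.19 and -2.91. Il12a, which encodes a subunit of the cytokine IL-12, fell to -2.73 in RCI and further in WBIR. Stat4, which transmits the IL-12 signal, fell to -1.73 in WBIR and -2.25 in RCI. The IL-12 receptor gene Il12rb1 was not called in either injury under either scaling. Il12rb2 was at 0.41 in WBIR and -0.35 in RCI, not called. Under TMM Il12rb2 was called higher in WBIR (1.06, edgeR adjusted p = 0.00968). Ebi3, also listed, rose by 0.67 in WBIR and 0.86 in RCI. Its WBIR call was lost without Sham replicate 1 or 3, or WBIR replicate 2 or 3. Eomes fell by 2.50 in RCI and was at -1.12 in WBIR (edgeR adjusted p = 0.133), and Tbx21, which encodes T-bet, was not called in either under either scaling (-0.01 and -1.06, and 0.69 and -0.54 under TMM). The ligand Il18 was thus higher and its receptor genes lower in both injuries, and these calls held in all 24 alternatives except that of Il18rap in WBIR, which held in 23.

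Ifngr1 was not called in any comparison. Scaled counts were 1435, 1534 and 1936 in Sham, 766, 1243 and 1250.2 in WBIR, and 880.0, 1417 and 1371 in WBIR+MSC-EVs. They were 1588, 1557 and 686 in RCI and 1835, 1739 and 1183 in RCI+MSC-EVs. Both WBIR groups lay below Sham without overlap, and both RCI groups overlapped it. The log2 fold changes against Sham were -0.59 in WBIR, -0.42 with vesicles added, -0.36 in RCI and -0.04 with vesicles added, each with an SE of 0.33 (smallest edgeR adjusted p 0.127). Under TMM the values were 0.01, 0.08, 0.02 and 0.24, so the direction turned with the scaling. Without RCI replicate 3 the value in RCI was -0.06.

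The log2 difference between Ifngr1 and 7 monocyte and macrophage genes of the same sample was 2.56 lower in the irradiated samples than in Sham (exact permutation test, two-sided p = 0.00440, adjusted p = 0.0176). Ifngr1 itself was not called. The differences were 3.03 to 3.09 in Sham and -0.999 to 0.94 after irradiation, and RCI replicate 3 gave the lowest. Of these 7 genes, 4 rose in WBIR and 5 rose and 1 fell in RCI (5 and 0, and 6 and 0, under TMM), and their summed scaled count was 2070.2 to 2556 in Sham, 9202 to 19154 in the other irradiated samples and 36382 in RCI replicate 3. Neither Cxcl9 nor Cxcl10 differed from these genes past the threshold (-0.25, adjusted p = 0.750, and -0.96, adjusted p = 0.126, by the exact permutation test). The genes most like Ifngr1 over the 12 irradiated samples were the macrophage genes C1qb (r = 0.98), Ctss (r = 0.97) and Ly86 (r = 0.96), all 3 at their lowest injured value in RCI replicate 3, and at r of 0.97, 0.96 and 0.97 without it.

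Among the other genes of interferon gamma signalling, 0 of 8 described here, which are not the whole list, rose and 4 fell in WBIR, and 1 rose and 3 fell in RCI (1 and 3, and 2 and 3, under TMM). The kinases Jak1 and Jak2 stood at -1.38 and -1.78 in WBIR and at -1.77 and -1.43 in RCI. Ciita, the master regulator of MHC class II genes, fell, to -3.76 in WBIR and -3.96 in RCI, with 635 to 987 scaled counts in Sham and 33.8 to 94.2 after irradiation. B cells are the main bearers of MHC class II in spleen, and all 9 listed B cell genes fell in both injuries (8 in WBIR under TMM). Their part in the Ciita values was not tested. Socs1, a feedback inhibitor of JAK kinases, rose by 0.64 ± 0.22 in RCI (edgeR adjusted p = 0.0154), a call lost without Sham replicate 1 (0.49, edgeR adjusted p = 0.0674). In WBIR it was at -0.14 (edgeR adjusted p = 0.572) but rose under TMM, by 0.52 (edgeR adjusted p = 0.0300). Over treated and untreated mice it was 0.77 ± 0.15 higher with the burn (edgeR adjusted p = 0.0185), a call lost without WBIR replicate 2, WBIR+MSC-EVs replicate 1 or 3, or RCI+MSC-EVs replicate 2 (edgeR adjusted p from 0.0563 to 0.0788). Cd274, which encodes PD-L1, was at -0.81 in WBIR (edgeR adjusted p = 0.04997), a call that held in 4 of 24 alternatives and not under TMM (-0.13, edgeR adjusted p = 0.782). In RCI it was at 0.25 (edgeR adjusted p = 0.506) and was called higher under TMM (0.88, edgeR adjusted p = 0.0498), whereas without RCI replicate 3, its highest sample, it was at -0.32 (edgeR adjusted p = 0.291). Ifngr2, Irf1 and Irf8 were not called in either injury under either scaling.

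**Figure D5:**
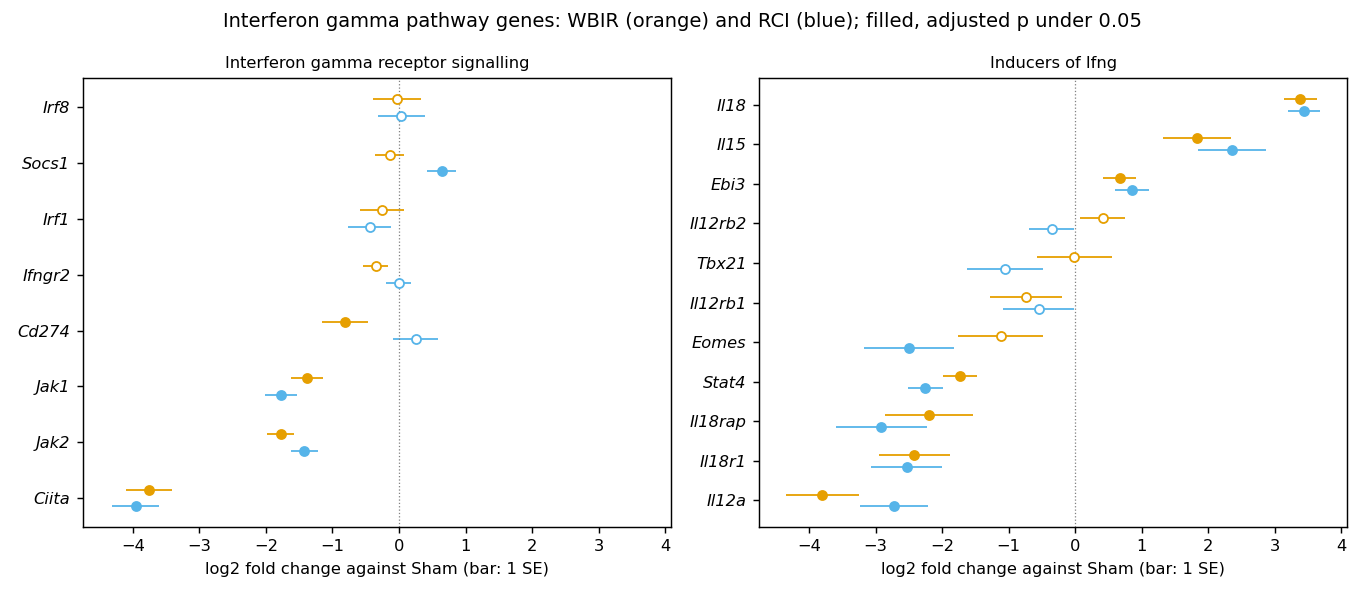
Log2 fold changes against Sham of 8 tested genes of interferon gamma signalling and of the 11 tested inducers of Ifng, in WBIR (orange) and RCI (blue), with bars of 1 SE and filled points where the adjusted p is under 0.05. Il18 and Il15 lie above 0 in both injuries, and Ciita, Jak1, Jak2, Il12a and the Il18 receptor genes lie below 0 in both.

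Type I interferon genes were followed because type I interferons also induce Cxcl10. Of 15 tested, 6 rose and 3 fell in WBIR, and 6 rose and 4 fell in RCI (11 and 2, and 8 and 3, under TMM). The interferon-induced gene Ifi204 rose by 4.24 in WBIR and 4.40 in RCI, the RNA sensor gene Ifih1 by 2.24 and 2.05, the antiviral gene Bst2 by 1.94 and 2.14, and Irf7, the amplifier of type I interferon, by 2.10 and 2.33. Ifnar1, a chain of the type I receptor, fell, to -1.74 in WBIR and -1.26 in RCI, and Irf3 to -2.23 and -1.65. Ifnar2, the other chain, did not fall. It was at 0.77 in WBIR (edgeR adjusted p = 0.0601) and 0.34 in RCI (edgeR adjusted p = 0.386). Under TMM Ifnar2 was called higher in both, at 1.43 and 0.79 (edgeR adjusted p of 0.000581 and 0.0232). Tlr9 was at -1.13 and -1.40, the former not called under TMM (-0.57). Mx1 was at -1.05 in WBIR, not called, and fell to -1.30 in RCI (edgeR adjusted p = 0.0240). That call was lost under TMM (-0.73), and without RCI replicate 3 or Sham replicate 2 (-0.98 and -0.48). Ddx58, Ifit2, Ifitm1 and Stat2 were not called in either injury. Under TMM they were called higher in WBIR, and Ddx58 in RCI too. Irf7 was also the gene most like Cxcl9 over all 15 samples (r = 0.93), before Il15 (r = 0.90) and Tyrobp (r = 0.90). Over the 12 irradiated samples Irf8 (r = 0.78) and the class II genes H2-Aa (r = 0.77) and H2-DMa (r = 0.75) came closest to Cxcl9, and without RCI replicate 3 their r was 0.55, 0.54 and 0.47. For Cxcl10 they were Serping1, the complement inhibitor gene (r = 0.93), Ccl12 (r = 0.88) and Batf (r = 0.87) over all samples, and C3 (r = 0.90), Serping1 (r = 0.90) and Cxcl13 (r = 0.86) over the irradiated ones. C3, Serping1 and Cxcl13 all had their highest value in RCI replicate 3, as Cxcl10 did, and without it their r over irradiated samples was 0.83, 0.84 and 0.75.

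The vesicles moved none of the 4 tested genes past the threshold. In WBIR+MSC-EVs against WBIR the log2 fold changes were -0.07 for Cxcl9 (95% interval -1.05 to 0.90), 0.28 for Cxcl10 (-0.76 to 1.31), 0.17 for Cxcr3 (-0.53 to 0.87) and 0.17 for Ifngr1 (-0.53 to 0.88), all with an edgeR adjusted p of 0.997. In RCI+MSC-EVs against RCI they were -0.42 for Cxcl9 (-1.39 to 0.54), -0.60 for Cxcl10 (-1.59 to 0.40), 0.29 for Cxcr3 (-0.42 to 1.00) and 0.31 for Ifngr1 (-0.39 to 1.02), all with an edgeR adjusted p of 0.989. None had an unadjusted p under 0.05 in either comparison, and the groups overlapped for all 4. The intervals of both ligands reach past 1 log2 unit in at least 1 direction, so a similar level with and without vesicles is not shown. The values for Cxcl9 and Cxcl10 after RCI turned on RCI replicates 1 and 3, without which they were 0.27 and -0.05. Same-numbered samples with and without vesicles deviated together within each injury, and with the number as a block there the 4 genes again did not pass (-0.07, 0.35, 0.19 and 0.17 after WBIR, and -0.21, -0.53, 0.33 and 0.38 after RCI, for Cxcl9, Cxcl10, Cxcr3 and Ifngr1, smallest edgeR adjusted p 0.908). By pair, Ifngr1 was higher with vesicles in 6 of 6, by 0.13 to 0.79 on the log2 scale, or 0.02 to 0.45 under TMM. Of all genes 9.39% moved one way in all 6 pairs (7.98% under TMM), and 8.92% were higher in all 6 (4.23% under TMM). Cxcr3 was higher in 3 of 3 WBIR pairs, where 32.6% of genes moved one way and 24.9% were higher in all 3, but in 2 of 3 under TMM. Cxcl10 was lower in 3 of 3 RCI pairs under both scalings, where 39% of genes moved one way (32.6% under TMM). Lower in all 3 RCI pairs were 10.1% of genes, or 17.6% under TMM. With the block and TMM its difference after RCI was -0.69 (unadjusted p = 0.0399, edgeR adjusted p = 0.951). The effect in RCI minus that in WBIR was -0.35 for Cxcl9 and -0.87 for Cxcl10 (edgeR adjusted p of 0.998 for both).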

How the data were processed

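Raw barcode counts of mRNAs in 15 spleen samples (nCounter Mouse Immunology Panel) were used as deposited by the authors, whose methods name nSolver software; per the labels and the file nothing had been normalized. No value was 0 and the smallest count was 1, so a 0 may be stored as 1. Control probes were not used here and cartridges are not given in the sources used here. Total counts per sample ran from 90127 to 598872.

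Counts were scaled to the geometric mean of 14 reference genes. Endogenous genes (547) averaging 20 counts or more, 426 in number, were tested with edgeR 4.0.16 (glmQLFit, glmQLFTest, R 4.3.3), with 1 coefficient per group over all 15 samples, Benjamini-Hochberg adjustment and an adjusted p threshold of 0.05. Within-sample differences used log2(count + 1) and two-sided exact permutation tests (scipy 1.17.1) adjusted over 20 tests. These tests and the main fit treat all samples as independent. Alternatives were TMM, median-of-ratios, 7 stable reference genes, no minimum, DESeq2 1.42.0, limma 3.58.1 at 2 pseudocounts, a replicate block, only the groups compared, and each sample left out. Replicate numbers paired samples with and without vesicles after the same injury (r of their deviations over 0.1 in 6 of 6 pairs, 0.24 to 0.68; the pairing comes from the data, not the labels) but not otherwise (5 of 24 pairs), so a block within each injury was added after seeing the data. Scripts were tested on simulated data.

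The genes named are the 6 chosen genes, members of the gene lists, and for each tested gene the 3 genes of highest Pearson's r over all and over irradiated samples. Genes, lists and tests were chosen with earlier results of these data known. A gene of the interferon gamma signalling list is not reported here and was left out of its counts, which thus do not cover the whole list.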

Additional observations from a re-analysis of the deposited data

How the results depend on the processing

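Each result was recomputed under 24 alternatives, and the vesicle comparisons under 2 more. The rises of Cxcl9 in every injured group, of Cxcl10 in RCI and the falls of Cxcr3 in both RCI groups passed in all 24. Called genes in WBIR against Sham were 1 in place of 2 with the 7 stable reference genes, without the minimum, with limma at a pseudocount of 1 or 10, with the replicate block and with only the groups compared, the lost call being Cxcr3. In WBIR+MSC-EVs against Sham they were 2 in place of 1 under TMM, median-of-ratios, stable reference genes, DESeq2 and limma at a pseudocount of 1, the gained call being Cxcl10. For the burn averaged over treatment Cxcr3 made them 1 in place of 0 under TMM, median-of-ratios, DESeq2 and with only the groups compared. The causes were not tested.

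Directions of uncalled values turned. Ifngr1 against Sham was 0.0076 and 0.025 in WBIR, 0.078 and 0.11 in WBIR+MSC-EVs, 0.020 and 0.037 in RCI, and 0.24 and 0.23 in RCI+MSC-EVs under TMM and median-of-ratios. Ifngr1 in RCI against WBIR was -0.061 with stable reference genes, and Cxcr3 in WBIR+MSC-EVs against Sham 0.00085 under median-of-ratios. The burn difference of Cxcl9 was -0.074 under TMM, -0.088 under median-of-ratios, -0.091 with stable reference genes and -0.0091 with limma at a pseudocount of 1.

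With single samples left out, called genes were 1 to 2 in WBIR, 1 to 2 in WBIR+MSC-EVs, 3 in RCI, 2 to 3 in RCI+MSC-EVs and 0 to 1 for the burn, and the other comparisons kept 0. Of 20 within-sample tests 1 to 7 passed in place of 6 (2 of the 6 involve Cxcl11 or Ifng, which lie under the minimum, and are not read). With 2 Sham samples no difference from Sham passed, where so few samples leave little room to pass. Log2 values that changed sign ranged, for WBIR+MSC-EVs against WBIR, over -0.020 to 0.68 (Cxcl10) and -0.025 to 0.36 (Ifngr1), and for RCI+MSC-EVs over -0.16 to 0.13 (Ifngr1 against Sham) and -0.83 to 0.27 (Cxcl9 against RCI). Cxcl9 ranged over -0.38 to 0.72 in RCI against WBIR and -0.21 to 0.34 for the burn. The vesicle effect averaged over injuries ranged over -0.45 to 0.099 (Cxcl9) and -0.34 to 0.11 (Cxcl10), and its difference between injuries over -0.76 to 0.34 (Cxcl9), -0.046 to 0.42 (Cxcr3) and -0.16 to 0.34 (Ifngr1). Within samples, RCI minus WBIR groups ranged over -0.22 to 0.52 (Cxcl10 minus Cxcl11), -0.12 to 0.082 (Cxcr3 minus NK genes) and -0.16 to 0.23 (Ifngr1 minus macrophage genes), and irradiated minus Sham over -0.68 to 0.22 (Cxcl9 minus macrophage genes). None of the 29 sign changes of single genes was called in either setting.

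With the replicate number as a block over all 15 samples, called genes in WBIR against Sham were 1. With the replicate block within each injury, under reference-gene scaling or TMM, called genes remained 0 in the vesicle comparisons, and no direction turned. A T cell list without Cd3eap was added after seeing the data. Depth limits Cxcl11 and Ifng most.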
